A study of Homo sapiens with 2 samples.

Results

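Genes that low oxygen is known to induce, and that do not encode glycolytic enzymes, were followed between the arrays of a CD133 knockdown experiment. There were 10 of them: LOX, NDRG1, BNIP3, BNIP3L, ANKRD37, KDM3A, P4HA1, P4HA2, ADM and CA9. The members were chosen with earlier results of these data known and were fixed by gene symbol. Every probe that carried one of these symbols and a value on both arrays was taken. The annotation lists 13 such probes for 9 of the 10 genes, and 10 probes covering those 9 genes had values, out of 15205 named probes and 11579 named genes in all. CA9, a membrane-bound carbonic anhydrase that acidifies the outside of the cell, has no probe in that list and was not analysed here. The other 3 probes, 1 each for BNIP3L, P4HA1 and P4HA2, were null on both arrays.

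The samples were Huh7 cells, a human hepatocellular carcinoma cell line, transduced either with a lentiviral vector (group vector, 1 array) or with a lentivirus encoding a short hairpin RNA against CD133 (group shCD133, 1 array). Both groups therefore carried a lentivirus and were grown in the same serum-containing medium. The labels name no low-oxygen treatment and do not say how many hairpins were used. The study asks how STAT3 and the tumour environment govern CD133, a surface marker of liver cancer stem cells, and the arrays compare cells with and without the knockdown. Total RNA from each culture was hybridised to an Illumina bead array, and each value is the log2 brightness of 1 probe after the authors' processing. Because each group was a single array, no value below has a replicate error, no test was possible and no p-value is given. The only spread in the data is that between probes of 1 gene: over 2907 genes with more than 1 probe, the SD of the difference between arrays was 0.34 per probe, and it ran from 0.39 where the dimmest probe of a gene was below 8 to 0.13 where it was at 12 or above. It covers disagreement between probes of a gene on the same arrays. It leaves out measurement error that those probes share and variation between cultures. In a bulk extract, a difference in the share of cells that express a gene and a difference in RNA per cell cannot be told apart.

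Cells sense oxygen through prolyl hydroxylases that mark the alpha subunits of the hypoxia-inducible factors (HIF) for destruction by the VHL ubiquitin ligase. When oxygen is scarce the alpha subunit escapes, pairs with ARNT and binds short DNA elements with the core ACGTG or GCGTG near its target genes. Beside the switch to glycolysis, these targets remodel the collagen matrix, remove mitochondria, demethylate histones and widen blood vessels, and many of them serve as markers of hypoxic tumours.

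Of the 9 measured genes, 4 (LOX, NDRG1, BNIP3 and ANKRD37) were at least 2-fold higher on the shCD133 array, 5 lay between the thresholds, and none was at least 2-fold lower. Over all named genes 2.08% were at least 2-fold higher and 8.26% at least 2-fold lower. At 1.5-fold, P4HA2 joined the higher genes, which made 5 of 9 against 12.3% of all genes, and still no measured member was lower, against 16.3% of all genes. The median difference (shCD133 minus vector, log2) of the 9 genes was 0.92, and that of all named genes was 0.11. Because the members were chosen with earlier results of these data known, these shares and medians are a description and no test against all genes. The gene lists used below were chosen in the same way, so their shares and medians are also only a description. The members did not form 1 continuous range: 5 lay between 0.92 and 1.83, and the other 4 (P4HA1, KDM3A, BNIP3L and ADM) lay between -0.32 and 0.07. Against the probe SD at their own level, P4HA1, KDM3A and BNIP3L were within 1 SD of 0, and ADM was 2.37 SDs below it. The hairpin's target, PROM1, which encodes CD133, was at 13.58 on the vector array and 10.83 on the shCD133 array, a difference of -2.75.

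**Figure D1:**
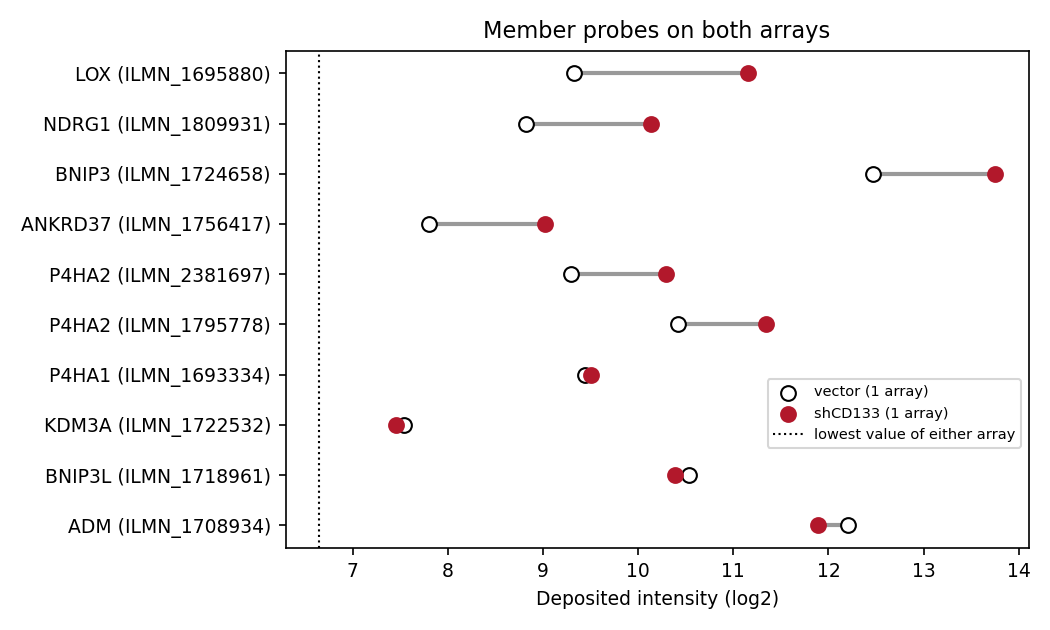
Deposited log2 intensity of the 10 member probes on the vector array (open circles) and the shCD133 array (filled circles), ordered by difference; the dotted line is the lowest value of either array, 6.65. The 6 upper probes, of 5 genes, are displaced to the right by 0.92 to 1.83, and the 4 lower probes are displaced by at most 0.32.

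Promoter sequences are shown as a description. The genes were chosen as known targets of low oxygen, and HIF binds ACGTG or GCGTG near its targets. Matches to these words are therefore not independent of the choice of genes. RefSeq windows of 300 bases (250 before and 50 after the annotated start, GRCh38.p14, the most upstream window where several are listed) were found for 7 of the 9 measured genes. NDRG1 and BNIP3L have no window in the table used here. ACGTG or GCGTG was searched on both strands, so that CACGT and CACGC also count, and CACGTG counts as 1 place with matches on both strands. Each stretch below reads 5′ to 3′ on the gene's strand, ends before the annotated start, and carries the matches in capitals.

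LOX, chr5:122078277-122078464, minus strand: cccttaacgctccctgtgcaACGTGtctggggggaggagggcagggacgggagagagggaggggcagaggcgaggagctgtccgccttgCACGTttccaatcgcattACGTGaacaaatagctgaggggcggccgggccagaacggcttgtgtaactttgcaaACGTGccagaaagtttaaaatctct

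BNIP3, chr10:131982003-131982086, minus strand: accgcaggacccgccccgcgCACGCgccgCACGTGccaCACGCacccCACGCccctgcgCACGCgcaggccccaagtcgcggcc

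ANKRD37, chr4:185396659-185396722, plus strand: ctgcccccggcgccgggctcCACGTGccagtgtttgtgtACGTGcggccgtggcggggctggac

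P4HA1, chr10:73096928-73096972, minus strand: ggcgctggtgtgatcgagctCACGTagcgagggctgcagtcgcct

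KDM3A, chr2:86441325-86441369, plus strand: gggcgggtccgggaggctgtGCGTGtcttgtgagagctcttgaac

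ADM, chr11:10304952-10304996, plus strand: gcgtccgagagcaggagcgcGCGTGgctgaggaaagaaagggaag

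ACGTG was present in 4 of these 7 windows, at 4 places in LOX, 2 in ANKRD37 and 1 each in BNIP3 and P4HA1. GCGTG was present in 3, at 4 places in BNIP3 and 1 each in KDM3A and ADM. The P4HA2 window held neither. The 3 measured genes at least 2-fold higher that had a window all held ACGTG, but so did P4HA1, whose difference was 0.07, and P4HA2, at 0.92, lacked it. Such short words are common: among the most upstream windows of 9356 measured genes, 27.3% held ACGTG, 50.5% held GCGTG and 63.2% held either, and over all 35116 windows in the table the shares were 21.4%, 36.5% and 48.4%. A match is only a run of letters, and binding of a factor was not measured.

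Among the genes of the collagen matrix, LOX encodes lysyl oxidase, the secreted copper enzyme that cross-links collagen and elastin. Its probe (ILMN_1695880, NM_002317) read 9.33 on the vector array and 11.16 on the shCD133 array, or 644 and 2294 unlogged. The shCD133 value was thus 3.56-fold higher, a log2 difference of 1.83, which ranked 18th from the top among 11579 genes and equalled 8.45 times the probe SD at its level (0.22). It was the largest difference among the measured members.

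P4HA1 and P4HA2 encode alternative catalytic subunits of collagen prolyl 4-hydroxylase, which hydroxylates proline so that the collagen triple helix is stable, and both pair with the same beta subunit, P4HB. P4HA2 was the only member with more than 1 measured probe. Probe ILMN_1795778 (NM_001017973) read 10.42 on the vector array and 11.34 on the shCD133 array, which was 1.90-fold higher (0.92 on the log2 scale). Probe ILMN_2381697 (NM_001017974) read 9.29 and 10.29, which was 2.01-fold higher (1.01 on the log2 scale). The P4HA2 probes therefore lay on either side of the 2-fold line while differing by only 0.08 from each other, which is 0.17 SDs of the gap between 2 probes of a gene, pooled over all levels. Counted by probe, 5 of the 10 member probes were at least 2-fold higher, against 1.96% of all named probes. P4HA1 (ILMN_1693334, NM_000917) read 9.44 on the vector array and 9.51 on the shCD133 array, so that it differed by 0.07. The gap between the paralogs was 0.85 or 0.93 by P4HA2 probe, 1.76 or 1.93 SDs of a probe gap. The null P4HA1 probe is listed for another transcript (NM_001017962), whereas the null P4HA2 probe shares its accession with a probe that gave a value.

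Of 21 measured genes of collagen and elastin modification beyond the members, 1 was at least 2-fold higher and 1 at least 2-fold lower, with a median of 0.23. Each count was 4.76% of the list, against 2.08% higher and 8.26% lower over all named genes. The higher gene was LOXL4, a lysyl oxidase relative, at 10.86 on the vector array and 12.21 on the shCD133 array (a difference of 1.34). COL5A2, a fibrillar collagen chain, differed by -1.28, and COL1A2, a chain of type I collagen, by 0.94. The shared subunit P4HB, named after its value was seen, differed by 0.40.

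BNIP3 and BNIP3L are related proteins of the outer mitochondrial membrane that recruit the autophagy machinery to mitochondria. The BNIP3 probe (ILMN_1724658, NM_004052) read 12.47 on the vector array and 13.75 on the shCD133 array, or 5688 and 13742 unlogged, a 2.42-fold higher value. The difference of 1.27 ranked 95th from the top. At this brightness probes of 1 gene differ little from each other (SD 0.13), and of 1234 named genes with a mean level of at least 12, only 7, BNIP3 among them, were at least 2-fold higher.

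The BNIP3L probe (ILMN_1718961, NM_004331) read 10.54 on the vector array and 10.39 on the shCD133 array, which was 1.11-fold lower (-0.15 on the log2 scale). The gap between BNIP3 and BNIP3L was 1.42, which is 2.94 SDs of a gap between 2 probes of a gene, pooled over all levels. A further BNIP3L probe of the same accession was null on both arrays. In the list of mitophagy receptors and machinery, 2 of 17 other measured genes reached a 2-fold higher value and none a 2-fold lower one, with a median of 0.21. The higher share was 11.8%, against 2.08% of all named genes. The higher genes were PINK1, the kinase that marks damaged mitochondria (8.41 to 9.61, a difference of 1.19), and ULK1, which starts autophagosome formation (11.28 to 12.30, a difference of 1.03). After centring, or with either trend removed, 1 of them was 2-fold higher. At 1.5-fold the list still had 2 higher genes of 17 (11.8%), against 12.3% of all named genes. At that threshold 3 of the 17 were lower, against 16.3% of all named genes. CALCOCO2, an autophagy receptor, differed by -0.72, and BNIP2, a name-sharing relative picked after its value was seen, by -0.69.

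NDRG1 is a cytoplasmic stress-response protein that is induced by hypoxia and by iron loss. Its probe (ILMN_1809931, NM_006096) read 8.82 on the vector array and 10.14 on the shCD133 array, or 452 and 1132 unlogged. The shCD133 value was 2.51-fold higher, and the difference of 1.32 ranked 79th from the top. Relatives of NDRG1 and their kinases numbered 5 with values, of which 1 was at least 2-fold higher and 1 at least 2-fold lower. Each count was 20% of this short list, against 2.08% higher and 8.26% lower over all named genes. The higher one, NDRG2, differed by 1.01 (its other probe by 0.65), and NDRG4 differed by 0.97. Neither was 2-fold higher with the mean over probes, after centring or with the level trend removed, and both were with the lowest value subtracted (1.07 and 1.12) and with the length trend removed (1.05 and 1.01). The kinase SGK3 differed by -1.88, and its other probe by -0.71.

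ANKRD37 encodes a small ankyrin-repeat protein. Its probe (ILMN_1756417, NM_181726) read 7.80 on the vector array and 9.02 on the shCD133 array, or 222 and 519 unlogged, and the difference of 1.22 ranked 115th from the top. The vector value lay only 1.15 above the lowest value in the data, and with the lowest value subtracted from each array ANKRD37 differed by 1.45. With the trend of the difference on gene length removed it differed by 0.93 and was no longer 2-fold higher.

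KDM3A encodes a histone demethylase of the JmjC class, enzymes that need oxygen to remove methyl marks. Its probe (ILMN_1722532, NM_018433) read 7.54 on the vector array and 7.46 on the shCD133 array, so that it differed by -0.09. Both values were within 1 log2 unit of the lowest value, where signal was not told from background, and with the lowest value subtracted it differed by -0.12. Of 18 other JmjC genes with values, none was at least 2-fold higher and 1 was at least 2-fold lower. The lower share was 5.56%, against 8.26% of all named genes. The lower gene was KDM6A, at -1.67, followed by KDM5B at -0.75 and JMJD6 at 0.73. The closest relative, KDM3B, which was added after its value was seen, differed by 0.00.

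ADM encodes adrenomedullin, a secreted peptide that widens blood vessels. Its probe (ILMN_1708934, NM_001124) read 12.21 on the vector array and 11.89 on the shCD133 array, or 4731 and 3800 unlogged. The difference of -0.32, 1.24-fold lower, was the lowest among the members, and ADM ranked 2809th from the bottom among all named genes. At this brightness the probe SD is 0.13, so the difference was 2.37 SDs from 0. Centring on the median gene gave -0.43 for ADM, against -0.42 with the level trend removed and -0.61 with the length trend removed. Of 10 other genes of adrenomedullin signalling in the list 3 had values, and none was 2-fold different: the receptor partners RAMP1 (0.40) and RAMP2 (0.43), and CRCP, a receptor component (-0.68), whose 4 probes ran from -0.68 to 0.26. Among the other carbonic anhydrases and transporters of acid, listed as relatives of CA9, 7 of 19 had values. Of these, 4 were above 0 and 3 below, with a median of 0.11. Only CA4, at 1.11, was at least 2-fold higher, and only the bicarbonate transporter SLC4A7, at -1.79, was at least 2-fold lower. Each was 14.3% of the 7, against 2.08% higher and 8.26% lower over all named genes. CA5B differed by 0.98 and CA12, named after its value was seen, by -0.52. CA4 and CA5B began at 7.33 and 6.96 on the vector array, near the lowest value.

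**Figure D2:**
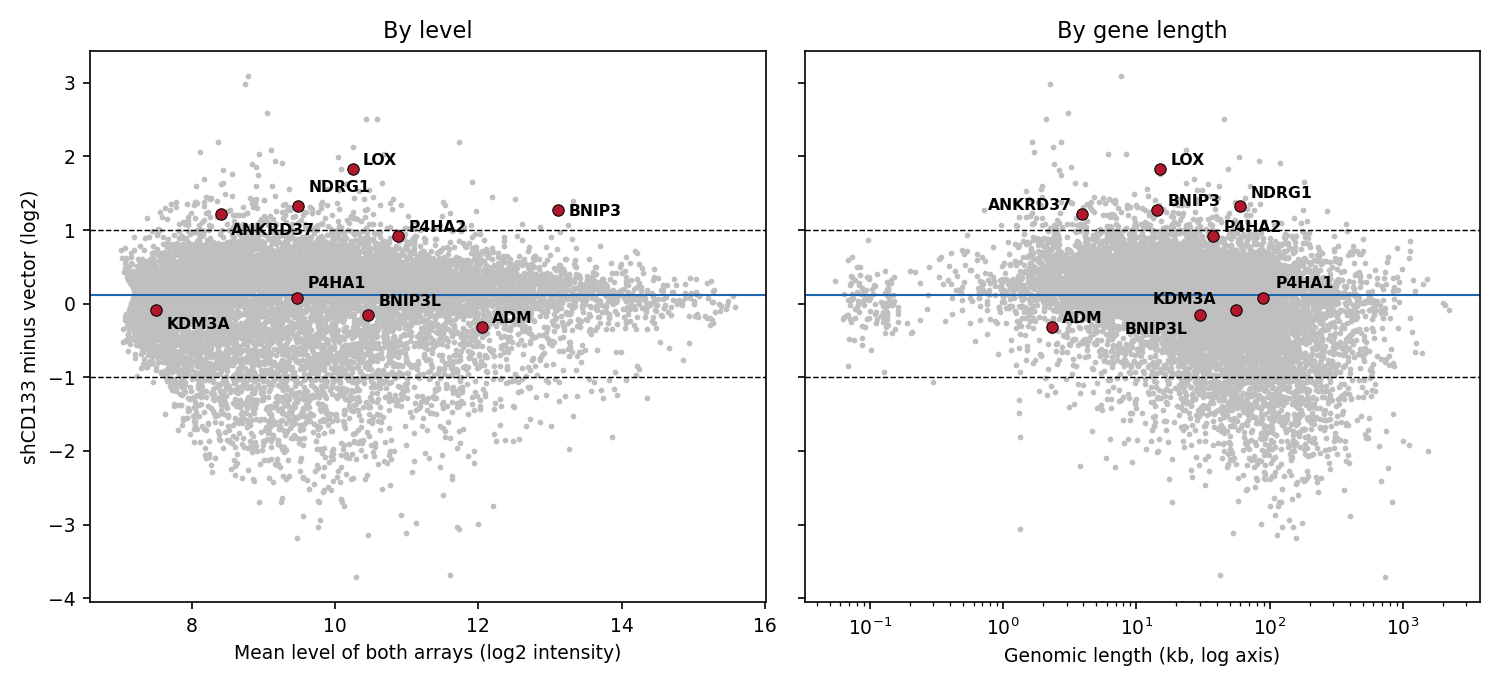
Difference between arrays (shCD133 minus vector, log2) of all 11579 named genes (grey) and the 9 measured members (red), against the mean level of both arrays (left) and the genomic length of the gene on a log axis (right). Dashed lines mark 2-fold, and the blue line is the median gene, 0.11. LOX, NDRG1, BNIP3 and ANKRD37 lie above the upper dashed line, P4HA2 just under it, and the other 4 near the median.

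Gene length was set beside the differences because longer genes tended to be lower on the shCD133 array, with a Spearman rho of -0.34 between length and difference over 11571 genes, which are not independent replicates. Genomic spans in RefSeq (GRCh38.p14) were 15.1 kb for LOX, 14.2 kb for BNIP3 and 3.88 kb for ANKRD37, below the 27.4 kb of the median gene, and 60.1 kb for NDRG1 and 37.7 kb for P4HA2, above it. The members near 0 were P4HA1 at 89.7 kb, KDM3A at 55.7 kb, BNIP3L at 30.1 kb and ADM at 2.33 kb. The 5 members with the highest differences had a median span of 15.1 kb and the other 4 of 42.9 kb. The part of length in the members' differences was not tested. With the length trend removed LOX differed by 1.62, NDRG1 by 1.39, BNIP3 by 1.05 and P4HA2 by 0.88, while ADM differed by -0.61 and P4HA1 by 0.21.

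**Figure D3:**
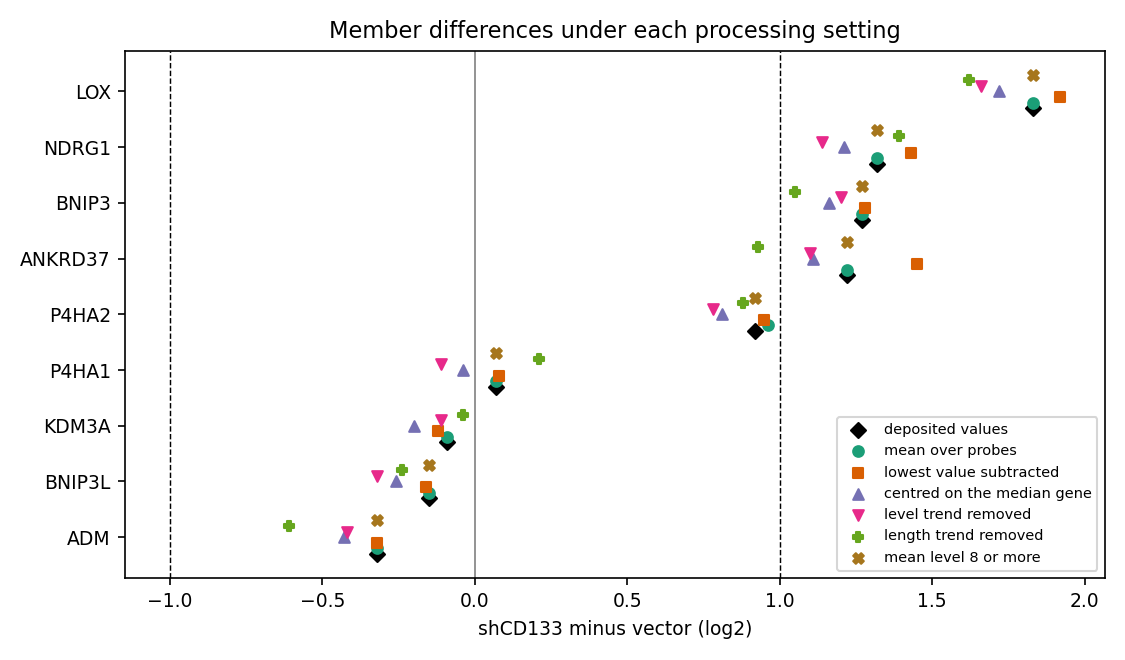
Difference of each measured member (shCD133 minus vector, log2) with the deposited values and under 6 other settings; dashed lines mark 2-fold and the grey line marks 0. LOX, NDRG1 and BNIP3 stay above the 2-fold line in every setting shown, ANKRD37 drops to 0.93 with the length trend removed, and P4HA1 lies on both sides of 0.

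The rest of the pathway was read from gene lists that exclude the members. These lists were also chosen with earlier results of these data known. The lists here and above share some genes, so they are not separate evidence. The shares to set beside each list are those of all named genes, 2.08% at least 2-fold higher and 8.26% at least 2-fold lower. Of 18 measured glycolytic HIF targets, 6 (33.3%) reached a 2-fold higher value and none a 2-fold lower one, with a median of 0.62. The highest were PFKFB4, a regulator of glycolytic flux, at 2.51, PFKFB3 at 1.65 and the glucose transporter SLC2A1 at 1.45, followed by ALDOC at 1.26, PFKL at 1.25 and PGK1 at 1.05. Centring on the median gene or removing the level trend left 5 genes 2-fold higher, and removing the length trend left 4.

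Of 45 other measured HIF targets outside glycolysis, 5 (11.1%) were at least 2-fold higher and 3 (6.67%) at least 2-fold lower, with a median of 0.34. After centring on the median gene, or with the level trend removed, 5 were at least 2-fold lower. The higher genes were DDIT4, an inhibitor of mTOR signalling, at 2.51, ZNF395 at 1.44, STC2, a secreted glycoprotein, at 1.41, SPAG4 at 1.37 and TMEM45A at 1.35. The lower genes were the transferrin receptor TFRC at -1.66, the caveolar protein CAV1 at -1.33 and the glycogen-branching enzyme GBE1 at -1.30. The other CAV1 probe differed by -0.79, short of 2-fold. AK4, named after its values were seen, was counted at 0.25 by its brightest probe. Its 4 probes ran from -2.39 to 0.53. VEGFA, the angiogenic growth factor, added after its value was seen, differed by 0.62.

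The list of HIF subunits and oxygen sensors also holds parts of the VHL ligase and coactivators. Of its 13 measured genes, none was at least 2-fold higher and 2 (15.4%) were at least 2-fold lower. These were CUL2, the scaffold of the VHL ligase, at -1.14, and the coactivator EP300 at -1.05. With the length trend removed neither was 2-fold lower. The median of 0.02 turned to -0.09 after centring on the median gene. HIF1AN, which blocks the coactivator contact of HIF, differed by 0.56. The 3 probes of HIF1A, named after their values were seen, differed by -0.42 to -0.18, and these arrays measure its mRNA, not the protein that oxygen controls.

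**Figure D4:**
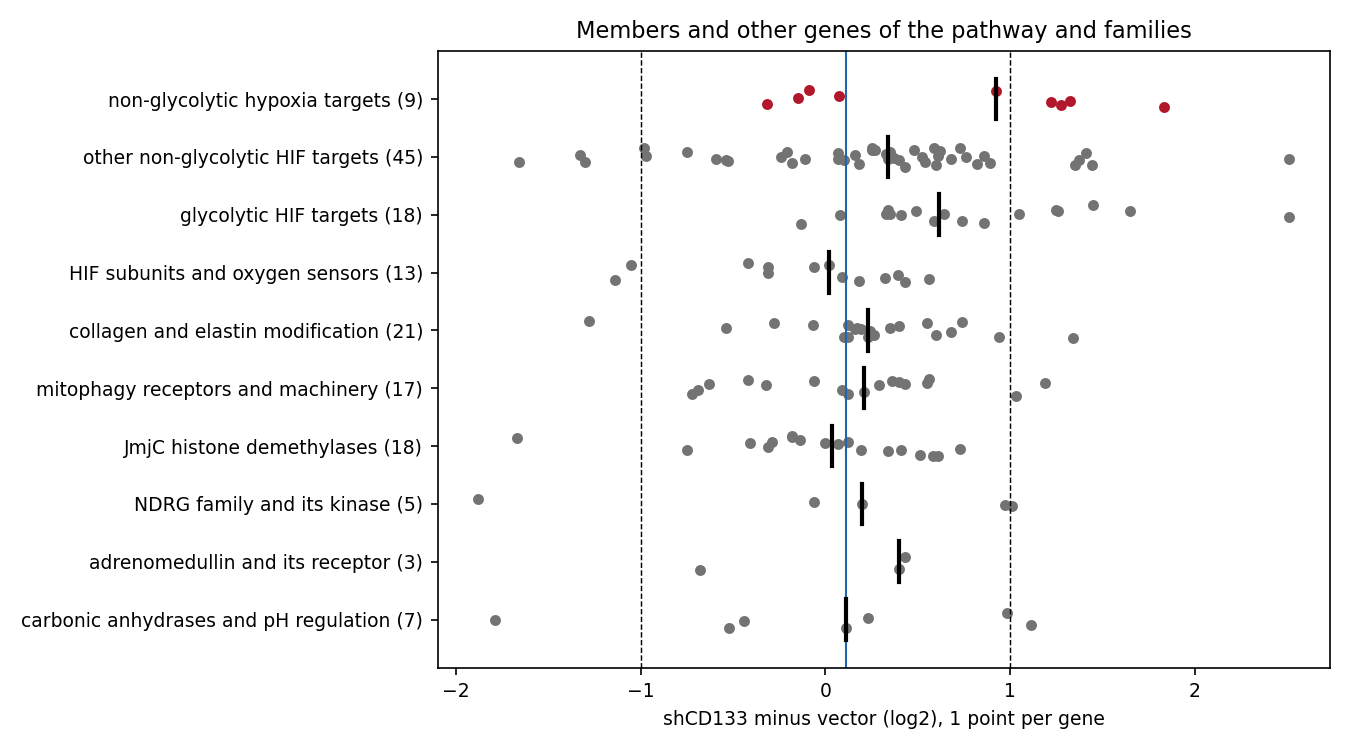
Difference between arrays (shCD133 minus vector, log2) of the 9 measured members (red) and of the other measured genes in each list (grey, 1 point per gene, number in brackets). Black bars are list medians, the blue line is the median of all named genes, 0.11, and dashed lines mark 2-fold. Members and lists were chosen with earlier results of these data known, and some genes are in more than 1 list. The members' median is 0.92, that of glycolytic HIF targets 0.62, and that of HIF subunits and oxygen sensors 0.02. The last list also holds parts of the VHL ligase and coactivators.

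The identity of the cells was checked by markers. Of 11 hepatocyte and hepatoma markers 10 had values, from 11.65 to 15.48 on the vector array and from 9.77 to 15.47 on the shCD133 array, and HNF4A had none. Of 5 endothelial markers only PECAM1 had a value (7.64 and 7.48). Of 6 leukocyte markers 4 had values, from 7.29 to 12.81 on the vector array and from 7.36 to 12.64 on the shCD133 array, while PTPRC and CD3E had none. The brightest was LYZ, which was within the range of the hepatocyte markers, and the dimmest was MS4A1. Of 7 fibroblast and stellate markers 5 had values, from 7.22 to 13.46 and from 7.25 to 13.45, while COL3A1 and ACTA2 had none. LUM was the brightest of these (13.46 and 13.45), followed by COL1A2 (11.55 and 12.50), while PDGFRB and DCN were below 8 on both arrays. Of 5 cholangiocyte markers 4 had values, from 7.94 to 12.14 and from 7.40 to 12.59, and KRT7 had none. Single markers differed: CD14 by 1.60 (8.32 to 9.92), COL1A1 by 0.74 and COL1A2 by 0.94 were higher on the shCD133 array, and APOB at -3.69 and FGB at -1.32 were lower. Their part in the members' differences was not tested.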

How the data were processed

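The authors deposited log2 intensities for 47323 probes, and 19665 (41.6%) had a value on both arrays. The log base was read as 2 from the range, 6.65 to 15.61. GenomeStudio 2011.1 is named in the submitters' processing notes, with no role. The sorted values of the arrays agree to within 0.00044 at every rank, as after quantile normalization, which forces equal distributions. The filter behind the null entries and any background step are not given in the sources used here. A second table has 4 value columns that could not be assigned to a sample, and they were not used, so no detection call was available.

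Probes were named from the platform annotation of 2016, with symbols updated by gene identifier through RefSeq (GRCh38.p14): 15205 probes had 1 symbol, 2 had several and 4458 had none or were not listed. A gene took its brightest probe by mean level. The difference is shCD133 minus vector, and 2-fold is the threshold. All members are named, then in each list the genes at least 2-fold different and the 3 with the largest absolute difference. The members and lists were chosen with earlier results of these data known. Alternatives were the mean over probes, subtraction of each array's lowest value plus an offset of 50, centring, lowess removal of the trend on level or on gene length (fraction 0.3), a mean level of at least 8, and a 1.5-fold threshold. The calculations, run in Python 3.11.15 with pandas 2.3.3 and statsmodels 0.14.6, were tested on simulated data. Precision is limited by the number of arrays.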

Additional observations from a re-analysis of the deposited data

How the results depend on the processing

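The differences of the 9 measured members moved by less than 1 probe SD (0.34, pooled over all levels) under each alternative that could be run, 53 values in all, and none at least 2-fold different turned its direction. Several of these values could hardly move. With 1 measured probe, every member but P4HA2 keeps its value in the mean over probes. The filter on mean level kept the same probe for each remaining member, and centring subtracts 0.11 from every gene. Against the probe SD at their own level (0.13), BNIP3 (1.05) and ADM (-0.61) moved by more than 1 SD with the length trend removed. P4HA1, which was not 2-fold different, lay between -0.11 and 0.21. ADM lay between -0.61 and -0.32. The number of members at least 2-fold higher was 4, became 3 with the length trend removed (ANKRD37, 0.93) and 5 at 1.5-fold. Their median ranged from 0.78 to 1.07, the highest with probes of mean level 8 or more, where KDM3A drops out. Over all named genes, 241 were at least 2-fold higher, against 367 with the lowest value subtracted, 148 with the level trend removed and 1423 at 1.5-fold. The 956 lower genes became 1883 at 1.5-fold. Of 243 further differences of 41 other named genes, 5 moved by more than 1 probe SD and none of the 2-fold different ones reversed. The causes were not tested. No paired analysis was possible because each group had 1 array. No array could be left out for the same reason. Any background step behind the deposited values is unknown, and with the lowest value subtracted the dimmest members differed by 1.45 (ANKRD37) and -0.12 (KDM3A).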
